A study of Mus musculus with 17 samples.

Results

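The machinery that folds secreted proteins in the endoplasmic reticulum (ER), handles collagen and exports both was described over 17 mRNA-seq libraries of CD-1 mouse cells. It was taken as 38 genes chosen by symbol for their known roles, of the 24015 genes in the count files. Earlier results of these data were known when they were chosen. They comprise 5 ER chaperones, 4 disulfide isomerases, 6 partners of the chaperone BiP and small secreted ER proteins, 4 genes of ER-associated degradation and 6 stress sensors and transcription factors. A further 4 belong to the translocon, 3 to export in COPII vesicles, 2 are KDEL receptors, and 4 are the collagen chaperone and the lysyl hydroxylases. Of the 38, 37 passed the filter on low counts in every comparison. Mia3, which encodes the collagen export receptor TANGO1, was listed at 0 in all 17 libraries and could not be tested. A count of 0 allows up to 3 counts, or 0.0653 to 0.149 CPM (counts scaled to library size) before TMM scaling, by counting error alone. Whether its annotation or read assignment kept reads from it was not tested.

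The libraries came from mouse embryonic fibroblasts (MEF), from extraembryonic endoderm (XEN) cells and from induced XEN (iXEN) cells, all of the CD-1 strain. XEN cells are stem cells of the primitive endoderm of the early embryo, and the iXEN cells arose when fibroblasts were reprogrammed with the OSKM factors, per the series title. The 3 MEF libraries, numbered 1, 2 and 3, came from cells grown for 3 passages in MEF medium. XEN cells (numbers 1, 2 and 7) and iXEN cells (numbers 1, 2, 6 and 9) were grown for 10 passages in embryonic stem cell (ESC) medium. They were then kept for 5 passages in either ESC medium or XEN cell medium, which gave 3 XEN and 4 iXEN libraries per medium. Medium and passages differ between MEF and the other cells together with cell type, and the 3 cannot be told apart in any comparison with MEF. The labels do not say whether the numbers mark separate derivations, so the p-values measure only the spread between these libraries. These are bulk libraries, in which fewer cells of a type and less RNA per cell cannot be told apart.

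Secreted and membrane proteins enter the ER through the Sec61 translocon, fold there with the help of chaperones and disulfide isomerases, and leave in COPII vesicles. Chaperones that escape are returned by KDEL receptors, and proteins that fail to fold are sent to degradation. When unfolded proteins build up, the sensors IRE1 (Ern1), PERK and ATF6 raise transcription of much of this machinery. This response acts partly through XBP1 and through a promoter motif called the ER stress response element. Collagens need further steps, among them hydroxylation of lysines and binding by the chaperone HSP47 (Serpinh1). The parietal endoderm, a descendant of the primitive endoderm, is known for secreting the thick basement membrane called Reichert's membrane, rich in laminin and type IV collagen.

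The libraries held 20071567 to 45914262 counts in genes. The summed level of 7 XEN marker genes was 749 to 950 CPM in MEF and 1262 to 4128 CPM in the other 14 libraries. The sum hides unlike genes. Against MEF, Gata4, Sox17, Sox7 and Foxq1 had log2 fold changes of 7.49 to 10.6 over the XEN and iXEN groups. Those of Gata6 were 4.44 to 4.99 and those of Dab2 1.20 to 2.50. Pdgfra, at -1.06 to 0.36, was not called in any group. Fibroblast marker transcripts (12 genes) summed to 37742 to 53102 CPM in MEF. They summed to 7843 CPM in XEN library 1 in ESC medium, and to 2406 and 1085 CPM in iXEN libraries 2 and 9 in XEN medium, with 4.15 to 358 CPM in the other 11. Macrophage marker transcripts (7 genes) summed to 74.0 to 244 CPM in MEF and 2.69 to 27.5 CPM elsewhere. Pluripotency marker transcripts (6 genes) summed to 109 CPM in iXEN library 9 in XEN medium and 2.83 to 27.9 CPM in the other 16 libraries, and visceral endoderm marker transcripts (8 genes) to 4.30 to 4.74 CPM in MEF and 66.1 to 928 CPM elsewhere. Both XEN libraries numbered 7 stood apart: 8 parietal endoderm genes summed to 10963 CPM in ESC medium and 16300 CPM in XEN medium there, against 22848 to 147323 CPM in the other 12. The part of these differences in the results was not tested, and values without the libraries concerned are given where they move a result.

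Compared with MEF, more of the machinery was higher than lower in every XEN and iXEN group. In iXEN cells in ESC medium, 22 of 37 tested members rose (edgeR quasi-likelihood test, Benjamini-Hochberg adjusted p under 0.05) and 0 fell, where 20.8% of 14352 genes rose and 25.9% fell. In XEN cells in ESC medium, 8 members rose and 0 fell, where 11.4% of 14001 genes rose and 13.7% fell. Among iXEN cells in XEN medium, 13 rose and 0 fell, where 17.7% of 14438 genes rose and 14.9% fell. Among XEN cells in XEN medium, 17 rose and 1 fell, where 23% of 14390 genes rose and 24.5% fell. The median log2 fold change over the 37 members was 0.93, 0.56, 0.83 and 0.81 in that order, and that over all genes tested was 0.03, -0.03, 0.06 and 0.02. At an unadjusted p under 0.05, the members that were lower numbered 0, 0, 1 and 1, and DESeq2 called 0, 0, 1 and 1 lower. The lower member was Sec24d in each case in which the unadjusted p passed. The 4 comparisons use the same 3 MEF libraries, so they are set side by side and are not independent of each other. As the members were chosen with earlier results of these data known, the shares of all genes are given for description only.

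Of the 38 genes, 7 rose in all 4 comparisons (Pdia3, Dnajb11, Sdf2l1, Creld2, Manf, Xbp1 and Kdelr3), 6 in 3, 3 in 2, and 9 were called in 1. The remaining 13, Mia3 included, were called in none. Of 13842 genes tested in all 4 comparisons, 7.09% rose in all 4, and 14.7%, 12.4%, 17.7% and 19.9% were called in 4, 3, 2 and 1 in either direction, with 35.4% called in none. By level, 10 members lay above every MEF library in all 14 XEN and iXEN libraries, where 11.1% of 14357 genes did. These 10 were the 7 above with Hspa5, P4hb and Dnajc3. Sec24d lay below every MEF library in all 14, where 14.3% of genes did.

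The counts of calls depended on single libraries. In XEN cells in ESC medium, 8 risen members became 16 without XEN library 7, 12 (with 2 lower) without XEN library 2, and 0, 1 and 0 without MEF libraries 1, 2 and 3. The share of all genes called in either direction moved with them, from 25% to 33.8%, 41.8%, 2.57%, 4.8% and 3.92% in the same order. In XEN medium, 17 became 24 without XEN library 7 and 5, 8 and 4 without MEF libraries 1, 2 and 3, while the share of all genes went from 47.5% to 60.8%, 26.9%, 31.1% and 27.6%. For iXEN cells the count in ESC medium was 14 without MEF library 1, and that in XEN medium was 5, 7 and 5 without MEF libraries 1, 2 and 3. The share of all genes called there was 34.4% instead of 46.7%, and 12.5%, 15.1% and 12.6% instead of 32.6%. Calls kept in every alternative tried numbered 10 of 22, 0 of 8, 5 of 13 and 4 of 18 in the order iXEN in ESC medium, XEN in ESC medium, iXEN in XEN medium and XEN in XEN medium. With all 3 MEF libraries kept, the corresponding numbers were 11, 7, 9 and 11.

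**Figure D1:**
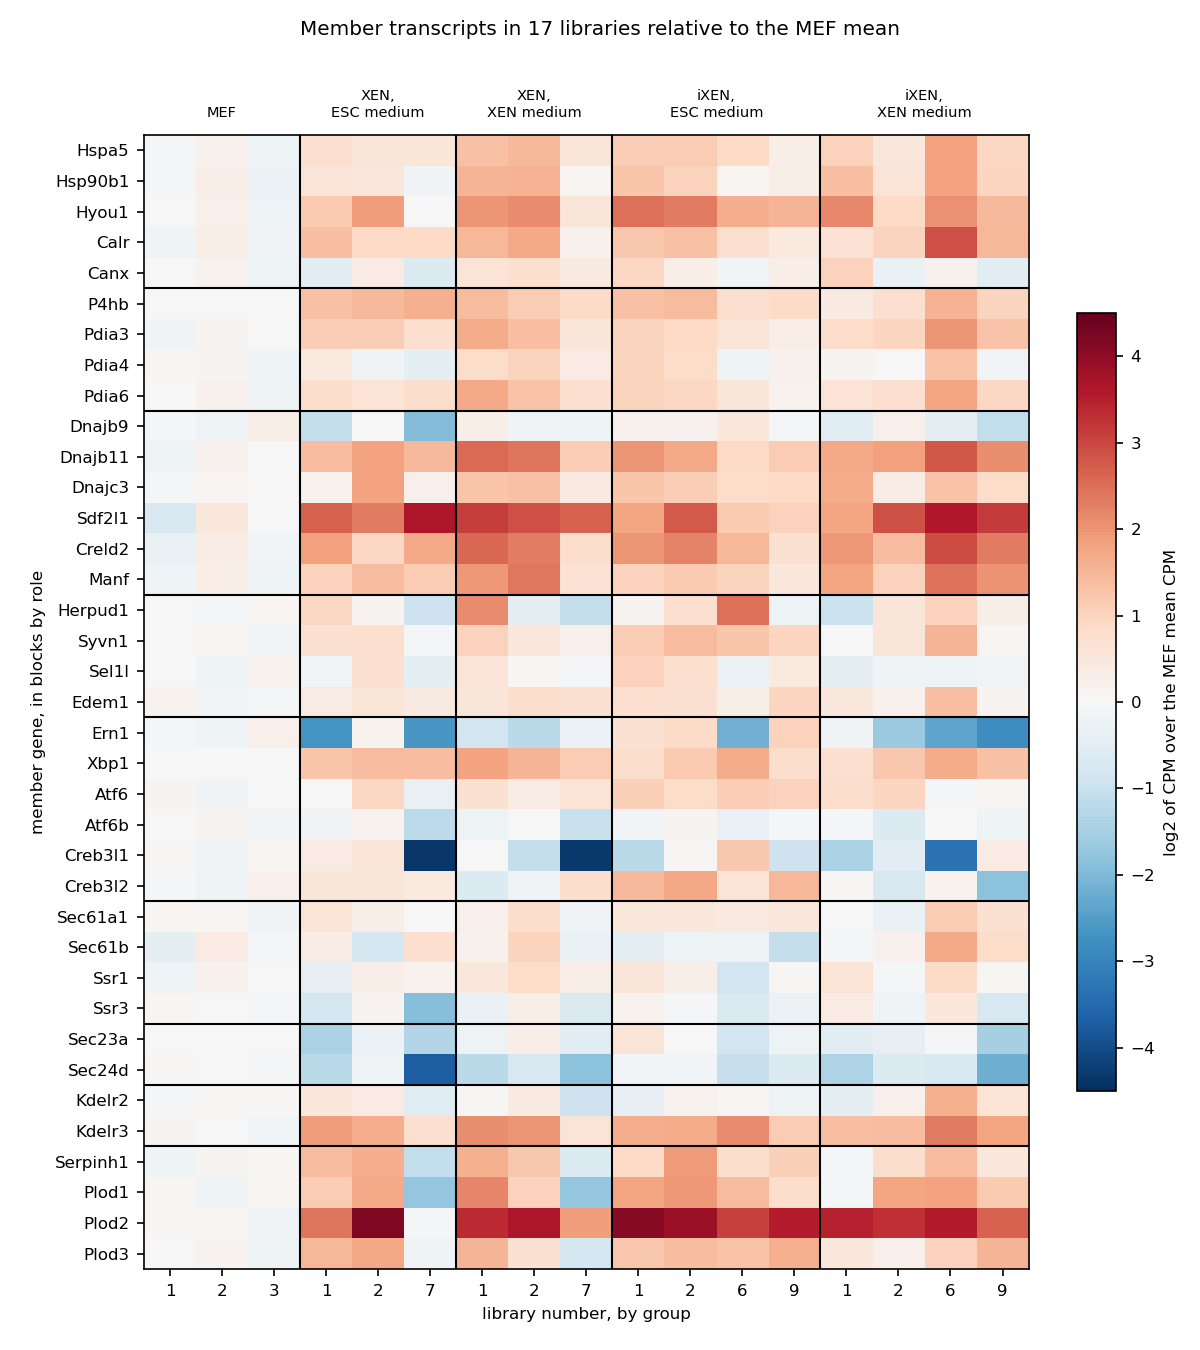
Each cell of the map is the log2 ratio of a library's CPM to the mean CPM of the 3 MEF libraries, for the 37 members with counts, in blocks by role from chaperones at the top to collagen-handling genes at the bottom. Plod2 and Sdf2l1 are among the members with the strongest red across XEN and iXEN libraries, except that Plod2 is near the MEF level in XEN library 7 in ESC medium. Serpinh1, Plod1 and Creb3l1 turn blue in both XEN libraries numbered 7. Plod3 is below MEF in library 7 in XEN medium and near the MEF level in library 7 in ESC medium.

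**Figure D2:**
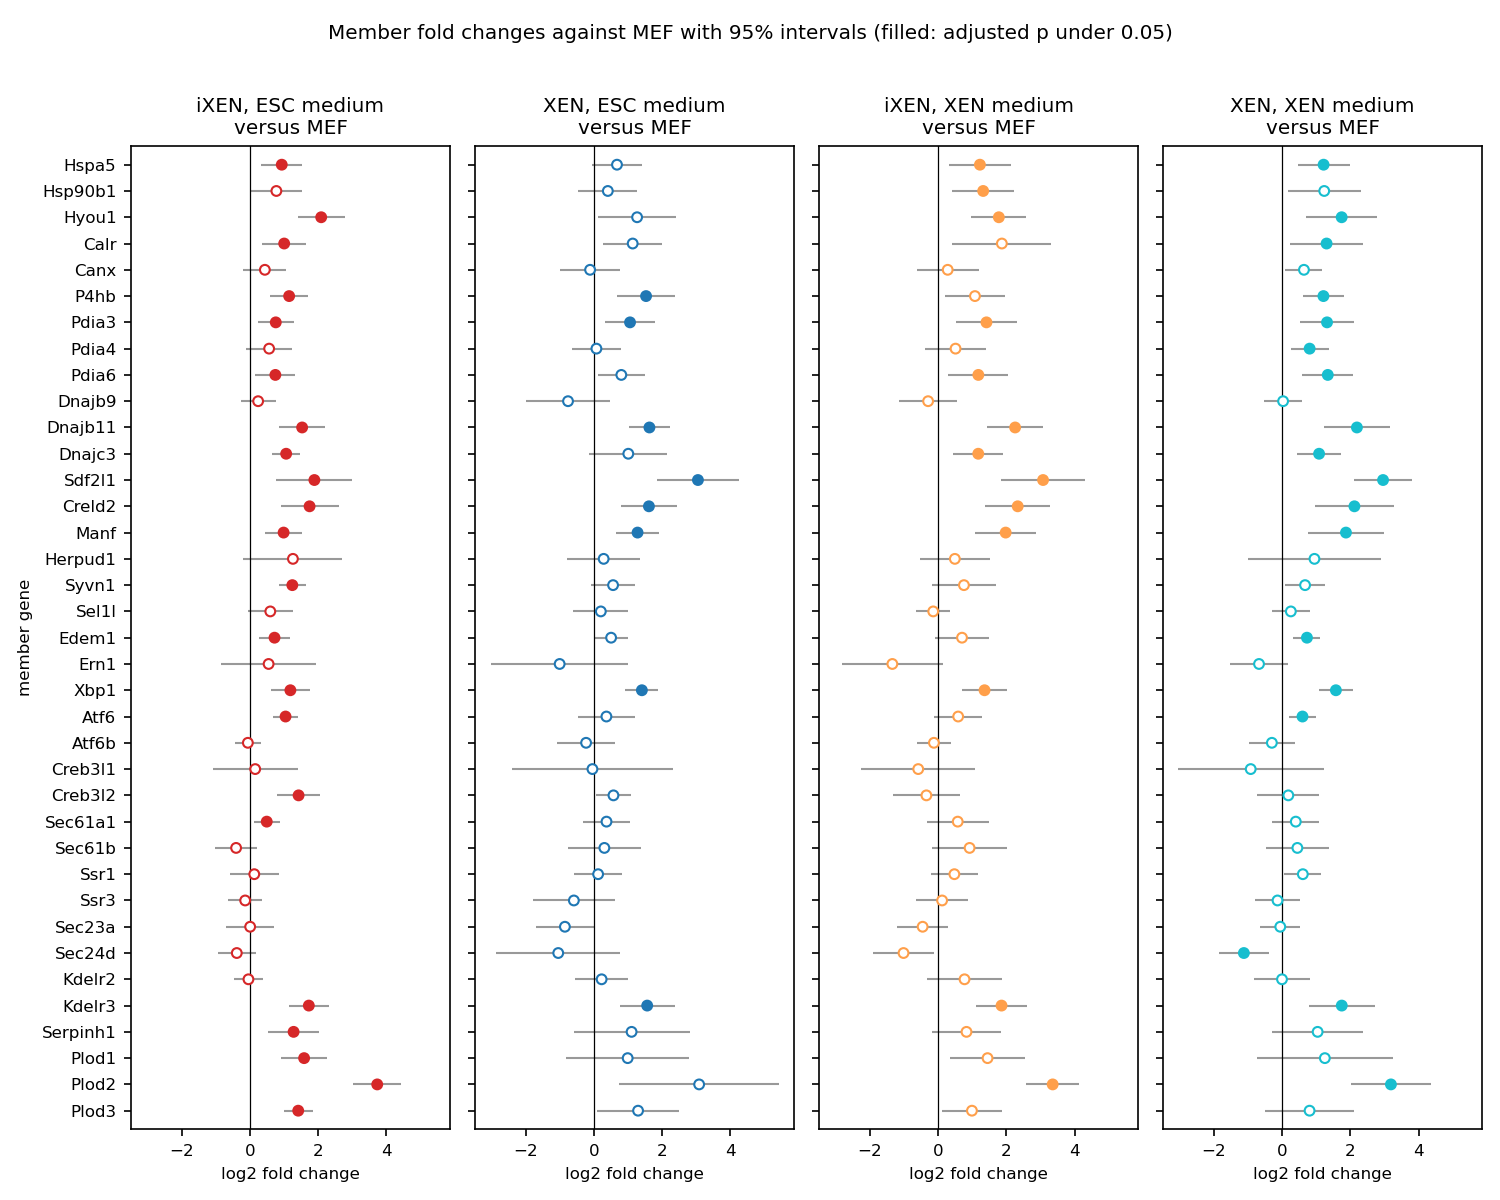
Points are log2 fold changes of the 37 tested members against MEF in the 4 groups, lines are 95% intervals of the edgeR fit, and filled points have an adjusted p under 0.05. The points lie mostly right of 0 in each panel, with 22, 8, 13 and 17 members called higher from left to right.

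The promoters of several members hold the elements through which ER stress acts, and the stretches around them are shown because it is through them that the response is known to act. Of the 38 members, 31 had a promoter in the RefSeq table of build GRCm38.p6, each with 250 bases before and 50 bases after the gene start. Hyou1, Manf, Atf6, Creb3l1, Sec61a1, Kdelr2 and Plod2 had no entry there and were not searched. The element, CCAAT and CCACG set apart by any 9 bases and searched on both strands, was in 8 of the 31 (25.8%) and in 37 of 27025 genes overall (0.137%). The second form of the element, ATTGG and CCACG set apart by any 1 base, was in 2 members (6.45%, against 0.0444% of genes), Herpud1 and Dnajb11. The XBP1-type element TGACGTGG was in 3 (9.68%, against 0.714%), Kdelr3, Sec24d and Sec23a. The members were chosen for known roles in machinery that the ER stress response raises. Their shares were therefore not independent of that choice, and the difference from all genes is no result of these data. The lines give the sites upstream of the start in the gene's direction, with 10 bases on either side and the fixed letters of the element in capitals. CGTGG followed by ATTGG, and CCACGTCA, are the same elements on the opposite strand.
Hspa5 (chr2:34772015-34772053, plus strand): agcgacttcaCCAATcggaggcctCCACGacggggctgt
Hsp90b1, site at chr10:86705523-86705561, minus strand: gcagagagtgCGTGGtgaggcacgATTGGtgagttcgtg
Hsp90b1, site at chr10:86705628-86705666, minus strand: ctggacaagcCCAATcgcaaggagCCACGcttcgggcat
Calr (chr8:84847065-84847103, minus strand): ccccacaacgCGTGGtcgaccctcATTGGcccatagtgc
Canx (chr11:50325790-50325828, minus strand): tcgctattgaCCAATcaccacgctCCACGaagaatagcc
Pdia6 (chr12:17266481-17266519, plus strand): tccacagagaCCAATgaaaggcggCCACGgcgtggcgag
Dnajc3 (chr14:118937817-118937855, plus strand): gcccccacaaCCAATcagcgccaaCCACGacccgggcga
Creld2 (chr15:88819510-88819548, plus strand): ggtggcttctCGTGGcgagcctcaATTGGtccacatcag
Syvn1 (chr19:6046522-6046560, plus strand): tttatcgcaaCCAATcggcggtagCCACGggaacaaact
Herpud1 (chr8:94386367-94386397, plus strand): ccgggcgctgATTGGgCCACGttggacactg
Kdelr3 (chr15:79516368-79516395, plus strand): ggccgccccgCCACGTCAccgcgcggcc
Sec24d (chr3:123267460-123267487, plus strand): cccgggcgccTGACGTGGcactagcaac
A match of letters is a description of the window and shows no binding. Of the 8 members with the longer element, 6 rose against MEF in iXEN cells in ESC medium and 1, Creld2, in XEN cells in ESC medium. In XEN medium 5 rose in either cell type. Their median log2 fold changes were 0.97, 0.74, 1.20 and 1.22 for iXEN in ESC, XEN in ESC, iXEN in XEN and XEN in XEN medium. Of the members with TGACGTGG, Kdelr3 rose in all 4 comparisons, while Sec24d lay below MEF and Sec23a was not called. The median log2 fold changes over these 3 were 0.01, -0.85, -0.45 and -0.05 in the same order.

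Of the 5 ER chaperones, 3 rose in iXEN cells in either medium and 3 in XEN cells in XEN medium. By edgeR 0 of the 5 were called in XEN cells in ESC medium, while 2 had an unadjusted p under 0.05 and DESeq2 called 3 (Hspa5, Hyou1 and Calr). Values of a gene are given below in the order of the library numbers. Hspa5 encodes BiP, the Hsp70 chaperone of the ER lumen. It stood at 1027, 1218 and 920.0 CPM in MEF, at 1741, 1552 and 1536 CPM in XEN cells in ESC medium and at 2605, 2956 and 1553 CPM in XEN medium. In iXEN cells it stood at 2277, 2314, 1948 and 1307 CPM in ESC medium and at 2165, 1487, 3703 and 2035 CPM in XEN medium, so that no library overlapped the MEF range. Its log2 fold change was 0.93 (SE 0.26, adjusted p = 0.0182) for iXEN in ESC medium, 1.23 (SE 0.39, adjusted p = 0.0447) for iXEN in XEN medium and 1.22 (SE 0.32, adjusted p = 0.0216) for XEN in XEN medium. In XEN cells in ESC medium it was 0.67 (SE 0.30, adjusted p = 0.142), short of a call.

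Hyou1, the large Hsp110-type chaperone that exchanges nucleotide on BiP, had the largest log2 fold change of the 5 chaperones in 3 of the 4 comparisons, Calr having it in iXEN cells in XEN medium. MEF held 142, 167 and 121 CPM of it, XEN cells 324, 525 and 145 CPM in ESC medium and 562, 626 and 208 CPM in XEN medium. The iXEN libraries held 790.0, 729, 446 and 413 CPM in ESC medium and 636, 268, 595 and 389.8 CPM in XEN medium. The lowest value outside MEF was in XEN library 7 in ESC medium, inside the MEF range. The log2 fold change was 2.09 (SE 0.30, adjusted p = 0.000651) in iXEN and 1.26 (SE 0.47, adjusted p = 0.0932) in XEN cells in ESC medium. In XEN medium it was 1.78 (SE 0.35, adjusted p = 0.00925) in iXEN and 1.74 (SE 0.43, adjusted p = 0.0185) in XEN cells.

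Calr, the lectin chaperone calreticulin, rose in iXEN cells in ESC medium, by a log2 fold change of 1.002 (SE 0.29, adjusted p = 0.0198), and in XEN cells in XEN medium, by 1.30 (SE 0.44, adjusted p = 0.0498). Its values in iXEN cells in XEN medium were 2161, 2733, 10271 and 3849 CPM, against 1188, 1689 and 1243 CPM in MEF, and library 6 was far above the rest. The log2 fold change there was 1.87 (95% interval 0.42 to 3.32, adjusted p = 0.0538). Hsp90b1, the ER Hsp90 known as GRP94, was called in iXEN cells in XEN medium, at 1.32 (SE 0.39, adjusted p = 0.0375), and its log2 fold change was 0.40 to 1.23 in the other 3 comparisons. Canx, the membrane-bound relative of calreticulin, was not called, with log2 fold changes of -0.12 to 0.64.

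The disulfide isomerases, which form and shuffle disulfide bonds, rose in 3, 2, 2 and 4 of 4 genes in iXEN in ESC, XEN in ESC, iXEN in XEN and XEN in XEN medium. P4hb serves also as the non-catalytic subunit of collagen prolyl 4-hydroxylase. Its level was 1766, 1783 and 1764 CPM in MEF, a narrow range. XEN cells held 4432, 4854 and 5329 CPM in ESC medium and 4746, 3943 and 3203 CPM in XEN medium. The iXEN libraries held 4451, 4748, 2934 and 3202 CPM in ESC medium and 2361, 2997, 5251 and 3511 CPM in XEN medium. Its 14 values outside MEF all exceeded the MEF range. P4hb rose by a log2 fold change of 1.15 (SE 0.25, adjusted p = 0.00525) in iXEN and 1.53 (SE 0.35, adjusted p = 0.0269) in XEN cells in ESC medium and by 1.21 (SE 0.25, adjusted p = 0.0103) in XEN cells in XEN medium. The remaining comparison, iXEN in XEN medium, gave 1.08 (SE 0.38, adjusted p = 0.0624).

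Pdia6, which acts on BiP clients, stood at 579.5, 680.0 and 503 CPM in MEF. XEN cells held 1019, 889 and 1026 CPM in ESC medium and 1914, 1439 and 965 CPM in XEN medium. Its iXEN values were 1191, 1131, 856 and 661 CPM in ESC medium and 898, 981, 2033 and 1128 CPM in XEN medium, and iXEN library 9 in ESC medium was inside the MEF range. Its largest log2 fold change was 1.34 (SE 0.31, adjusted p = 0.0148), in XEN cells in XEN medium, where the groups did not overlap. Pdia3, the partner of the calreticulin and calnexin cycle, was above MEF in all 14 libraries, with log2 fold changes of 0.76 to 1.42 and a call in each comparison. Pdia4 was called in XEN cells in XEN medium, at 0.81 (SE 0.23, adjusted p = 0.029).

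Among partners of BiP and small secreted ER proteins, 5, 4, 5 and 5 of 6 genes rose in the same order of groups. Sdf2l1, a cofactor that works with BiP and its J-domain partner Dnajb11, was at 6.62, 15.2 and 11.1 CPM in MEF. XEN cells held 68.5, 55.5 and 135 CPM in ESC medium and 95.8, 82.9 and 69.9 CPM in XEN medium. In iXEN cells the values were 37.3, 74.4, 25.0 and 22.5 CPM in ESC medium and 37.2, 80.9, 132 and 97.4 CPM in XEN medium. No library overlapped the MEF range. The log2 fold change was 1.89 (SE 0.49, adjusted p = 0.0127) in iXEN and 3.05 (SE 0.50, adjusted p = 0.0115) in XEN cells in ESC medium, and 3.08 (SE 0.53, adjusted p = 0.00631) and 2.96 (SE 0.35, adjusted p = 0.00163) in XEN medium.

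Dnajb11 rose by a log2 fold change of 1.53 to 2.26 over the 4 comparisons, from 85.1 ± 11.7 (SD, n = 3) CPM in MEF to 385 ± 144 (SD, n = 4) CPM in iXEN cells in XEN medium. Creld2, an ER protein with isomerase-like activity, rose by 1.61 to 2.33, and Manf, a secreted stress-induced survival factor, by 0.99 to 1.98. Each of these 3 genes was called in all 4 comparisons and lay above MEF in all 14 libraries. Dnajc3, also called p58IPK, a J-domain co-chaperone, was called in 3 comparisons at 1.06 to 1.18. In XEN cells in ESC medium its log2 fold change of 1.005 was not called (adjusted p = 0.159), with values of 123, 380.2 and 129 CPM that library 2 dominated. Dnajb9, a J-domain protein that restrains IRE1, differed in this role: its log2 fold changes ran from -0.76 to 0.24 and none was called.

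**Figure D3:**
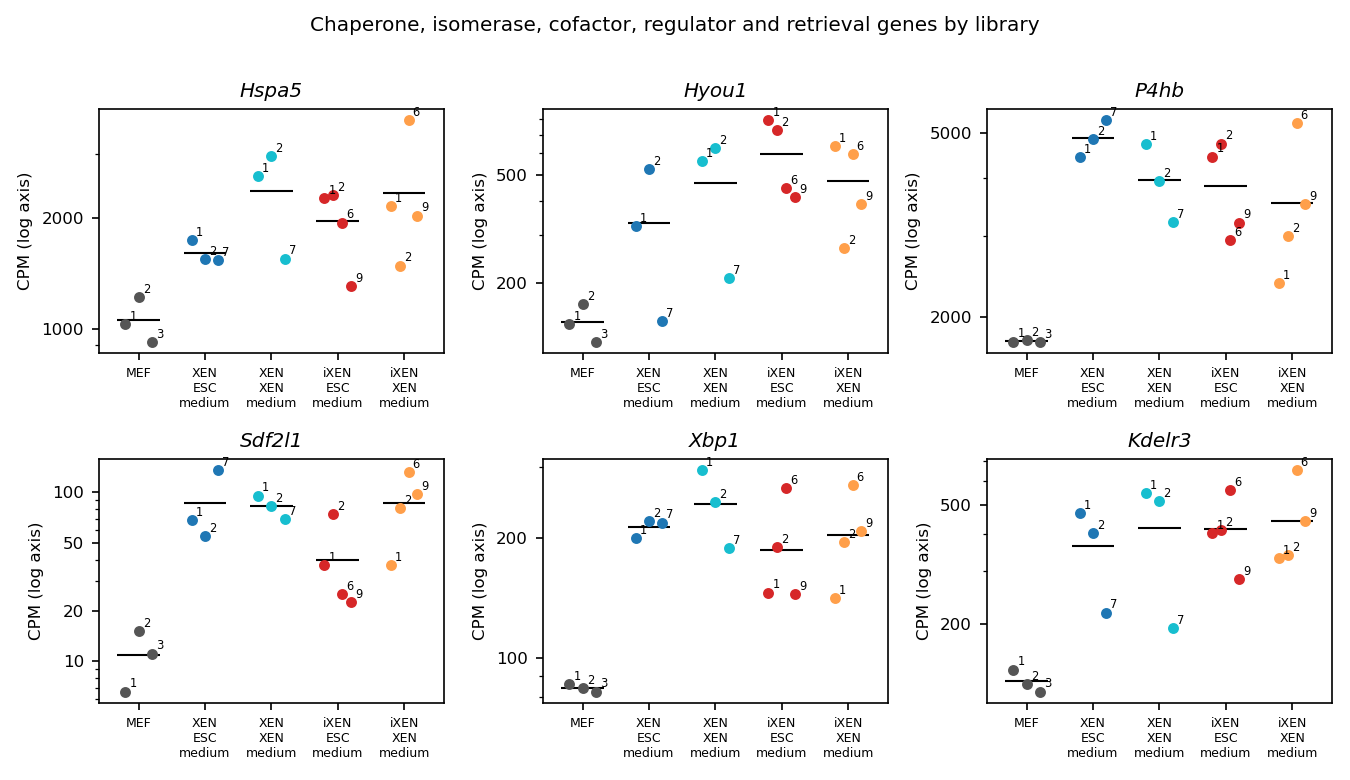
Dots are the CPM of 6 members in each library on a log axis, labelled with the library number, and bars are group means. All 14 XEN and iXEN libraries lie above the 3 MEF libraries for Hspa5, P4hb, Sdf2l1, Xbp1 and Kdelr3, and XEN library 7 in ESC medium falls to the MEF level for Hyou1.

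ER-associated degradation, which returns misfolded proteins to the cytosol for the proteasome, is represented by 4 genes. Of these, 2 rose in iXEN cells in ESC medium and 1 in XEN cells in XEN medium. Syvn1, the ubiquitin ligase HRD1, stood at 72.8, 77.7 and 66.9 CPM in MEF and at 159.9, 192, 174 and 143 CPM in iXEN cells in ESC medium, with no overlap, a log2 fold change of 1.24 (SE 0.17, adjusted p = 0.000553). It stood at 117, 121 and 69.1 CPM in XEN cells in ESC medium, at 149.6, 101 and 84.7 CPM in XEN medium and at 71.4, 106, 209.5 and 77.3 CPM in iXEN cells in XEN medium, and was not called there. Edem1, a lectin that hands misfolded glycoproteins to degradation, was at 127, 103 and 109 CPM in MEF and, in XEN cells, at 147, 164 and 148 CPM in ESC medium and 164, 197 and 182 CPM in XEN medium. The iXEN values of Edem1 were 189, 183, 134 and 222 CPM in ESC medium and 156, 129, 291 and 123 CPM in XEN medium. It rose by a log2 fold change of 0.72 (SE 0.20, adjusted p = 0.0188) in iXEN cells in ESC medium and 0.73 (SE 0.16, adjusted p = 0.0134) in XEN cells in XEN medium. Sel1l, the adaptor of HRD1, had log2 fold changes of -0.14 to 0.60. Herpud1, a stress-induced organizer of that complex, had 0.28 to 1.26, and neither was called. Herpud1 spread widely within groups, with 283, 49.3 and 30.7 CPM in XEN cells in XEN medium and 70.3, 110.0, 364 and 55.4 CPM in iXEN cells in ESC medium.

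Of the 6 sensors and transcription factors, Xbp1 rose in every comparison and the others in some or none. Xbp1 encodes the factor whose mRNA IRE1 splices, and counts by gene do not separate the spliced form. It was at 86.1, 84.3 and 82.4 CPM in MEF. XEN cells held 199.9, 221 and 218 CPM in ESC medium and 295, 245 and 188 CPM in XEN medium. The iXEN values were 146, 189, 266 and 145 CPM in ESC medium and 141, 195, 271 and 208 CPM in XEN medium. All 14 exceeded MEF, with log2 fold changes of 1.18 (SE 0.25, adjusted p = 0.00518) in iXEN and 1.40 (SE 0.20, adjusted p = 0.00811) in XEN cells in ESC medium. In XEN medium they were 1.36 (SE 0.28, adjusted p = 0.0113) and 1.58 (SE 0.21, adjusted p = 0.00216).

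Ern1, which encodes IRE1 itself, was not called, at 9.06, 8.39 and 11.1 CPM in MEF and from 1.36 to 19.8 CPM in the other libraries. Atf6, the sensor cleaved in the Golgi, rose in iXEN cells in ESC medium by a log2 fold change of 1.04 (SE 0.17, adjusted p = 0.00112) and in XEN cells in XEN medium by 0.60 (SE 0.16, adjusted p = 0.0237). Its relative Atf6b stayed at log2 fold changes of -0.30 to -0.06 and was not called. Creb3l2, a membrane-bound factor of the same family that acts on the COPII gene Sec23a in cartilage, was at 68.3, 61.0 and 83.9 CPM in MEF and at 197, 240.3, 109 and 202 CPM in iXEN cells in ESC medium. There it rose by 1.42 (SE 0.28, adjusted p = 0.00333). In iXEN cells in XEN medium it stood at 73.9, 42.9, 78.6 and 20.0 CPM, and XEN cells held 104, 103 and 96.6 CPM in ESC and 46.3, 63.6 and 123 CPM in XEN medium.

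Creb3l1, known as OASIS, a membrane-bound factor that acts on collagen genes in bone, had the widest spread of the members. It was at 83.5, 71.0 and 84.7 CPM in MEF, at 102, 118 and 3.83 CPM in XEN cells in ESC medium and at 80.3, 38.1 and 3.93 CPM in XEN medium. The iXEN libraries held 34.1, 81.9, 186 and 42.0 CPM in ESC medium and 29.9, 55.4, 8.06 and 103 CPM in XEN medium. Both XEN libraries numbered 7 and iXEN library 6 in XEN medium were far below the rest. No comparison called it, with log2 fold changes of -0.92 to 0.15, and without XEN library 7 it rose by 0.61 (adjusted p = 0.0488) in XEN cells in ESC medium. That library was singled out after its low values were seen, so the value without it is a description.

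Of the 4 translocon genes 1 rose, in 1 comparison. Sec61a1, the pore-forming subunit, rose in iXEN cells in ESC medium, from 488, 479 and 416 CPM in MEF to 642, 635, 606 and 647 CPM, a log2 fold change of 0.49 (SE 0.16, adjusted p = 0.0371). It stood at 465, 374, 1015 and 742 CPM in iXEN cells in XEN medium and, in XEN cells, at 706, 547 and 453 CPM in ESC medium and 545, 805 and 414 CPM in XEN medium, and was not called there. Sec61b, the beta subunit, and Ssr1 and Ssr3, of the translocon-associated complex, were called in none of the 4 comparisons by edgeR, with log2 fold changes between -0.59 and 0.92.

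Of the COPII export genes among the members, Sec24d and Sec23a could be tested, and neither rose. Other genes of this route are given below, and some of them rose. Sec24d, a cargo-selecting coat subunit needed for procollagen export, was at 222, 219 and 203 CPM in MEF. XEN cells held 92.5, 192 and 16.4 CPM in ESC medium and 91.7, 134 and 60.1 CPM in XEN medium, and iXEN cells 198, 199, 105 and 140.1 CPM in ESC medium and 81.9, 141, 134 and 46.4 CPM in XEN medium. All 14 lay below MEF. The fall passed the test in XEN cells in XEN medium, at -1.12 (SE 0.30, adjusted p = 0.025). That call was lost without any of the 3 MEF libraries, without XEN library 1 and in the fit over all 17 libraries. The other log2 fold changes were -0.39 in iXEN cells in ESC medium, -1.05 in XEN cells in ESC medium and -1.01 in iXEN cells in XEN medium. Sec23a, another coat subunit, had log2 fold changes of -0.85 to 0.01 and was not called.

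Of the 2 KDEL receptors, Kdelr3 rose and Kdelr2 was not called, and the difference between them was not tested. Kdelr3 was at 141, 126 and 119 CPM in MEF. XEN cells held 470.4, 402 and 219 CPM in ESC medium and 547, 514 and 194 CPM in XEN medium, and iXEN cells 403, 412, 560.0 and 282 CPM in ESC medium and 332, 340.4, 652 and 441 CPM in XEN medium. All 14 lay above MEF, the lowest being the XEN libraries numbered 7. It rose in each comparison, by 1.73 (SE 0.26, adjusted p = 0.000837) in iXEN and 1.56 (SE 0.34, adjusted p = 0.0218) in XEN cells in ESC medium, and by 1.86 (SE 0.32, adjusted p = 0.0064) and 1.75 (SE 0.40, adjusted p = 0.0145) in XEN medium. Kdelr2 had log2 fold changes of -0.04 to 0.78.

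In iXEN cells in ESC medium all 4 collagen-handling genes rose. Of the 4, edgeR called 1 in iXEN and 1 in XEN cells in XEN medium, Plod2 in both, and 0 in XEN cells in ESC medium. In XEN cells in ESC medium Plod2 and Plod3 had an unadjusted p under 0.05, and DESeq2 called both (adjusted p = 0.00236 and 0.0382). Plod2, the lysyl hydroxylase of collagen telopeptides that sets the type of cross-link, had the largest log2 fold change of the 37 tested members in each comparison. MEF held 156, 158 and 134 CPM, XEN cells 786, 2741 and 144 CPM in ESC medium and 1534, 1867 and 551 CPM in XEN medium. The iXEN libraries held 2543, 2227, 1258 and 1712 CPM in ESC medium and 1638, 1469, 1789 and 942 CPM in XEN medium. Every iXEN library exceeded the MEF range, and XEN library 7 in ESC medium stood inside the MEF range. Plod2 rose by 3.73 (SE 0.31, adjusted p = 3.2e-05) in iXEN cells in ESC medium, 3.36 (SE 0.33, adjusted p = 0.0012) in iXEN cells in XEN medium and 3.19 (SE 0.48, adjusted p = 0.00342) in XEN cells in XEN medium. In XEN cells in ESC medium the log2 fold change of 3.08 (SE 0.98, adjusted p = 0.0624) was not called, and it was 3.66 (adjusted p = 0.00627) without library 7. As library 7 was singled out after its low values were seen, the latter value is a description.

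Serpinh1 encodes HSP47, the chaperone dedicated to procollagen. It was at 2427, 3079 and 2921 CPM in MEF, at 7441, 8682 and 1309 CPM in XEN cells in ESC medium and at 8461, 6495 and 1837 CPM in XEN medium. The iXEN values were 5186, 10676, 4897 and 5955 CPM in ESC medium and 2675, 4808, 7371 and 3995 CPM in XEN medium. The 4 iXEN libraries in ESC medium lay above MEF, a log2 fold change of 1.28 (SE 0.32, adjusted p = 0.012). XEN libraries 1 and 2 were also above MEF in both media and library 7 was below it in both. With library 7, the log2 fold change in XEN cells was 1.10 (SE 0.71, adjusted p = 0.278) in ESC and 1.04 (SE 0.56, adjusted p = 0.165) in XEN medium. Without it, the values were 1.66 (adjusted p = 0.0121) and 1.46 (adjusted p = 0.00581). Library 7 was singled out after its low values were seen, so these values describe the other XEN libraries only.

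Plod1 and Plod3, the hydroxylases of the collagen helix, were low in XEN library 7. Plod1 lay below the MEF range in that library in both media, and Plod3 lay inside it in ESC medium and below it in XEN medium. Plod1 was at 152, 126 and 151 CPM in MEF, 313, 464 and 42.7 CPM in XEN cells in ESC medium and 651, 296 and 43.3 CPM in XEN medium. Plod3, which also glycosylates hydroxylysine and serves type IV collagen, was at 229, 250.3 and 192 CPM in MEF, 638, 747 and 197 CPM in XEN cells in ESC medium and 647, 359 and 131 CPM in XEN medium. The iXEN libraries held 488, 556, 383 and 249 CPM of Plod1 in ESC medium and 137, 491, 507 and 324 CPM in XEN medium. For Plod3 the values were 521, 581, 550.4 and 679 CPM and 307, 262, 456 and 647 CPM. In iXEN cells in ESC medium they rose by 1.59 (SE 0.29, adjusted p = 0.00236) and 1.41 (SE 0.19, adjusted p = 0.000436). Without XEN library 7 they were called higher in XEN cells as well, Plod1 by 1.58 in ESC and 1.78 in XEN medium and Plod3 by 1.77 and 1.22 (adjusted p between 0.00515 and 0.0124). Leaving out the library that is lowest for these genes raises the values by choice, so these calls describe the remaining XEN libraries and are no separate support.

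**Figure D4:**
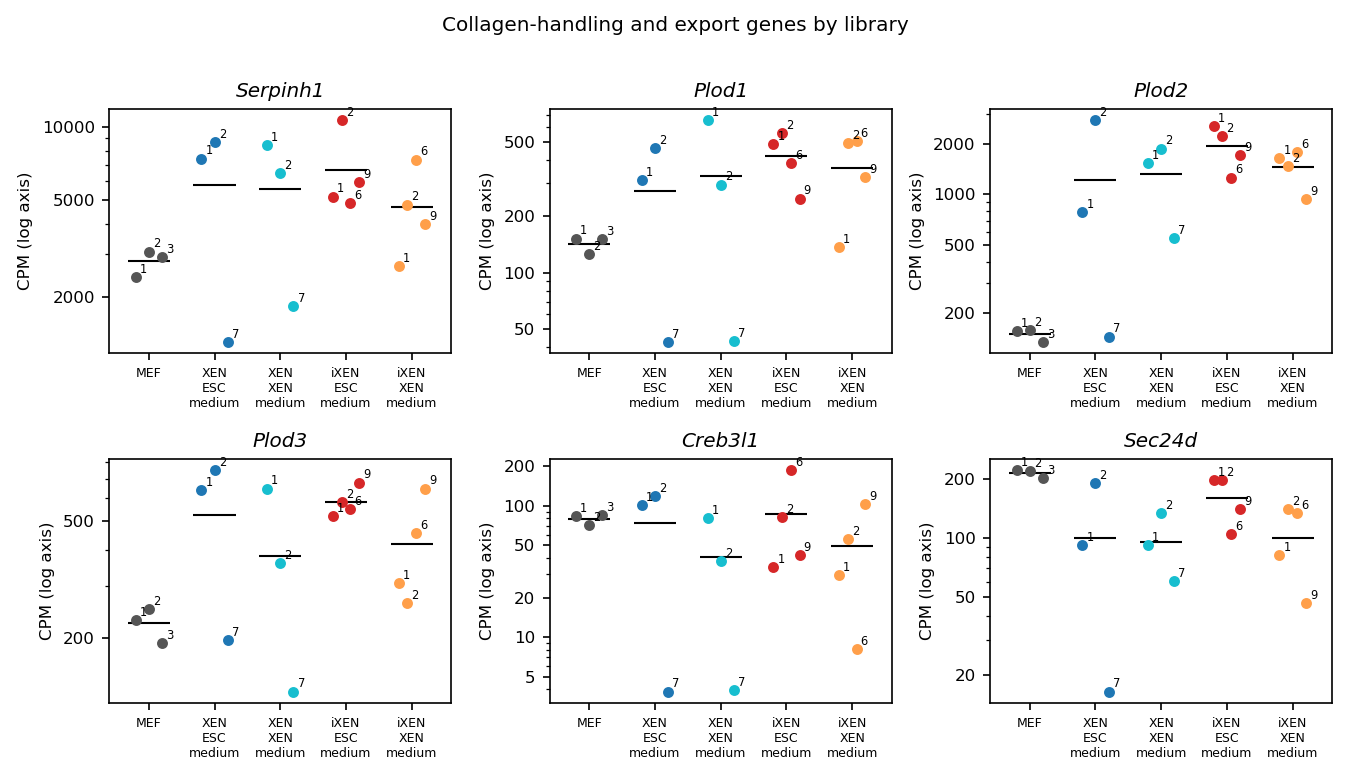
Dots are the CPM of 6 members in each library on a log axis, labelled with the library number, and bars are group means. In the panels of Serpinh1, Plod1, Plod2, Plod3 and Creb3l1 the dots labelled 7 are the lowest among the XEN libraries of either medium, and in the Sec24d panel every XEN and iXEN dot lies below the MEF dots.

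Within-group spread was not shared evenly by the roles. Both XEN libraries numbered 7 lay below the other 12 XEN and iXEN libraries for 9 of 37 members (24.3%), where 6.57% of 14357 genes did. These were Hyou1, Atf6b, Creb3l1, Kdelr2, Kdelr3, Serpinh1, Plod1, Plod2 and Plod3. Above the other 12 they lay for 0 members, where 7.62% of genes did. The summed CPM of the 4 collagen-handling genes was 1693 and 2562 in these libraries and 4757 to 14039.8 in the other 12. Their summed CPM of the 5 chaperones was 6071 and 5910 against 6305 to 20408. The parietal endoderm sums given above were lower in the same libraries, and their part was not tested. Library 6 of iXEN cells in XEN medium was the highest of 14 for 17 members (45.9%), where 8.46% of genes were. Hspa5, Calr, Pdia3, Dnajb11, Creld2 and Manf were among them, and its chaperone sum of 20408 CPM was the largest of the 14. These 3 libraries were picked out after their values were seen, and the shares are descriptions without a test. The same holds for the member values given above without XEN library 7.

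**Figure D5:**
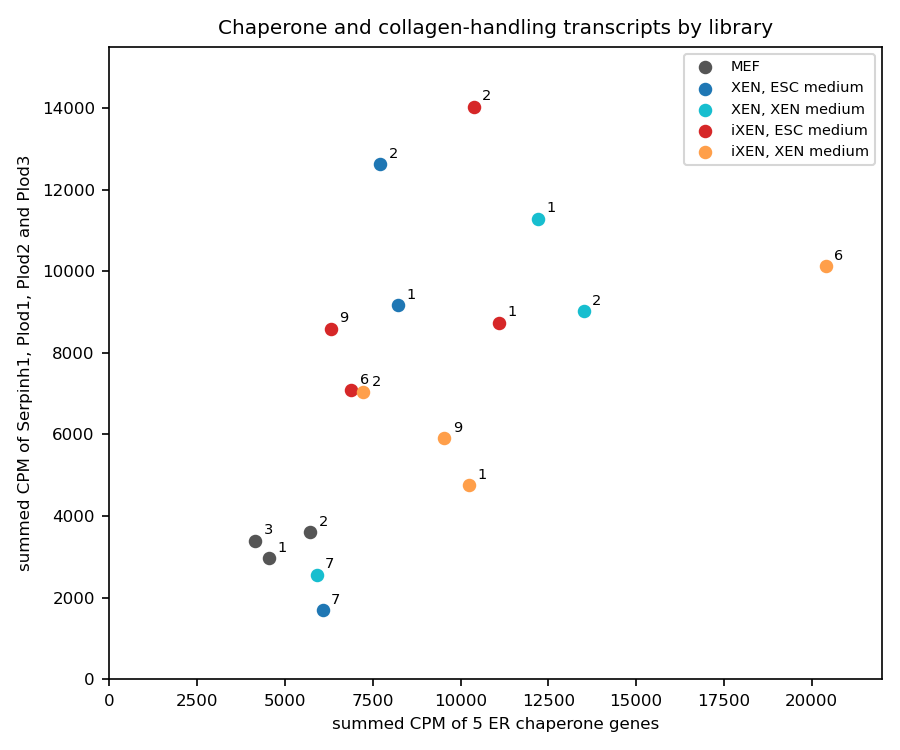
Each dot is a library, with the summed CPM of 5 ER chaperone genes on the horizontal axis and that of Serpinh1, Plod1, Plod2 and Plod3 on the vertical axis. The MEF libraries sit at the lower left with the XEN libraries numbered 7, and iXEN library 6 in XEN medium lies far to the right, at 20408 CPM.

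Other genes of the same pathways were read from lists chosen with the members. Of 105 such genes, all in the files, 38 of 105 tested rose and 8 fell in iXEN cells in ESC medium, and 21 of 103 rose and 3 fell in XEN cells in ESC medium. In XEN medium, 30 of 103 rose and 6 fell in iXEN cells, and 35 of 104 rose and 9 fell in XEN cells. Their median log2 fold changes were 0.40, 0.39, 0.56 and 0.55. Of all genes tested, 20.8%, 11.4%, 17.7% and 23% rose and 25.9%, 13.7%, 14.9% and 24.5% fell in the same order. Of 18 folding and redox genes, 11, 10, 10 and 11 rose in iXEN in ESC, XEN in ESC, iXEN in XEN and XEN in XEN medium. Ero1lb, an oxidase that drives disulfide formation, rose by 2.78, 1.82, 2.24 and 3.11. Prkcsh, a subunit of glucosidase II in the calnexin cycle, rose by 1.53 to 1.90, and Mogs, the glucosidase that starts the trimming, by 1.49 to 1.81.

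Degradation, translocation and export genes outside the members gave mixed counts, to be read against the 20.8%, 11.4%, 17.7% and 23% of all genes that rose. Of 13 degradation genes 2, 2, 3 and 3 rose, shares close to these, and 1, 1, 0 and 1 fell. Those that rose included them Derl3, a Derlin of secretory cells, by 4.65 in iXEN cells in ESC medium, and Edem2, which starts mannose trimming, by 1.82 to 2.50. Ube2j1, a ubiquitin-conjugating enzyme of the ER membrane, fell in 3 of the 4, by -0.95 to -0.77 as log2 fold changes. Of 20 translocon and signal peptidase genes 5, 3, 7 and 6 rose and 1, 0, 0 and 1 fell, led by Sec11c, a catalytic signal peptidase subunit, at 1.91 to 2.63. Srp54a fell in iXEN cells in ESC medium, with a log2 fold change of -2.61, and in XEN cells in XEN medium, with -2.72. It has near-identical copies that may share its reads, so its value is uncertain. Of 23 COPII and Golgi transport genes 9, 3, 4 and 10 rose and 2, 0, 4 and 4 fell, with Tmed10, a cargo receptor, at 0.99 to 1.47 and Sar1b, the GTPase that starts the coat, at 0.91 to 1.29. Sec31a and Sec24b, coat subunits, fell in 3 comparisons each, with log2 fold changes of -1.34 and -1.03 in XEN cells in XEN medium.

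Of the further stress sensors and effectors, 12 were tested in iXEN cells in ESC medium and 11 in each other comparison, where Bhlha15 did not pass the filter on low counts. Of these, 4 rose in iXEN cells in ESC medium and 1 in XEN cells in XEN medium, where 20.8% and 23% of all genes rose. Eif2ak3, which encodes PERK, rose by 1.08 (SE 0.24, adjusted p = 0.00678) and Bhlha15, a transcription factor of professional secretory cells known as MIST1, by 2.77 (SE 0.70, adjusted p = 0.0119) in iXEN cells in ESC medium. Against MEF, Bhlha15 passed the filter only through the counts of this iXEN group. Its place among the 4 therefore depends on the rise itself and is no separate support. Mbtps1 and Mbtps2, the Golgi proteases that cleave ATF6, rose there by 1.05 and 1.05. The effectors downstream of PERK, Atf4, Ddit3 (CHOP), Ppp1r15a (GADD34) and Trib3, were not called by edgeR in any of the 4 comparisons, with log2 fold changes of -0.70 to 0.83. Atf4 had an unadjusted p under 0.05 in iXEN cells in XEN medium (log2 fold change 0.79, adjusted p = 0.0613), and DESeq2 called it there.

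Genes of collagen maturation and the matrix cargo moved in both directions. Their counts are to be read against the 20.8%, 11.4%, 17.7% and 23% of all genes that rose and the 25.9%, 13.7%, 14.9% and 24.5% that fell. Of 19 maturation genes found, 7, 3, 6 and 4 rose and 3, 2, 2 and 3 fell. In XEN cells in XEN medium the share that rose was no larger than that of all genes. P4ha2, a catalytic subunit of prolyl 4-hydroxylase, rose by 2.91 to 3.21 in all 4 comparisons. Leprel1, a prolyl 3-hydroxylase known for acting on type IV collagen, rose by 3.44 (SE 0.24, adjusted p = 1.44e-05) in iXEN cells in ESC medium. Leprel2, its relative, had a log2 fold change of -5.22 (SE 0.43, adjusted p = 3.39e-05) there. Among 13 cargo genes the laminin chains Lama1, Lamb1 and Lamc1 rose in all 4 comparisons, by 9.45, 4.98 and 5.23 in iXEN cells in ESC medium. Col4a1 rose by 4.13 there, and the fibroblast collagens Col1a1 and Col3a1 had log2 fold changes of -11.17 and -11.21. Cargo genes that rose numbered 6, 5, 5 and 3, and those that fell 6, 1, 2 and 7. The 1 was Hspg2, of the basement membrane, with a log2 fold change of -1.11 (SE 0.31, adjusted p = 0.0443). The 2 were Hspg2, at -1.69 (SE 0.33, adjusted p = 0.0093), and the collagen Col5a2. Hspg2 also fell in XEN cells in XEN medium, at -2.04, and was not called in iXEN cells in ESC medium, at -0.32. Fibrillar collagen transcripts in XEN library 1 in ESC medium and iXEN libraries 2 and 9 in XEN medium, given above as fibroblast sums, were present in the groups with 1 and 2 falls. Their part in those counts was not tested. In iXEN cells in XEN medium, 16 members rose and 2 fell without libraries 2 and 9, against 13 and 0 with them, while the share of all genes called went from 32.6% to 51.8%.

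Both endoderm cell types, iXEN and XEN, were compared within a medium. In ESC medium edgeR called 0 of 12944 genes (0%) and in XEN medium 0 of 13263 (0%), and so 0 members. At an unadjusted p under 0.05 there were 1770 and 544 genes and 3 and 0 members, and DESeq2 called 393 and 75 genes and 0 members. In ESC medium the members with an unadjusted p under 0.05 were Syvn1 and Creb3l2, higher in iXEN cells, and Sdf2l1, lower. Syvn1 stood at 159.9, 192, 174 and 143 CPM in iXEN and 117, 121 and 69.1 CPM in XEN cells, without overlap, and its log2 difference was 0.68 (95% interval 0.05 to 1.31, adjusted p = 0.355). Creb3l2 did not overlap either, with a difference of 0.85 (95% interval 0.17 to 1.54), and 9.93% of genes had groups without overlap. In XEN medium Sel1l alone of the members had groups without overlap, where 4.49% of genes did. The median width of the members' 95% intervals was 1.77 in ESC medium and 1.96 in XEN medium on the log2 scale. For Hspa5 the intervals were -0.51 to 1.02 in ESC medium and -0.96 to 0.94 in XEN medium. Differences within such intervals are not shown to be absent.

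XEN medium was also compared with ESC medium within a cell type, without pairing libraries by number. By edgeR 0 of 13241 genes were called in XEN cells (0%) and 0 of 12920 in iXEN cells (0%), and 0 members. Unadjusted p-values under 0.05 were found for 746 and 3018 genes and for 0 and 6 members, and DESeq2 called 63 and 1536 genes. In iXEN cells Sdf2l1, Manf and Sec61b were the members higher in XEN medium at an unadjusted p under 0.05, and Sel1l, Ern1 and Creb3l2 those lower. Creb3l2, at 197, 240.3, 109 and 202 CPM in ESC medium and 73.9, 42.9, 78.6 and 20.0 CPM in XEN medium, did not overlap between media. Its log2 difference was -1.78 (95% interval -2.75 to -0.81, adjusted p = 0.075), and DESeq2 called it lower (adjusted p = 0.00242). Sec61b, at 70.6, 78.3, 79.5 and 44.3 CPM and 88.5, 107, 303 and 166 CPM, also did not overlap. Its log2 difference was 1.31 (95% interval 0.39 to 2.22, adjusted p = 0.119), and DESeq2 called it higher (adjusted p = 0.0318). In iXEN cells 12% of genes had media without overlap, and in XEN cells 12.5% had, Canx and Ssr1 among the members.

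The interaction of cell type and medium, which asks whether the medium difference differs between iXEN and XEN cells, was called for 0 of 14357 genes (0%) and 0 members by edgeR. At an unadjusted p under 0.05 there were 2131 genes and 3 members, and DESeq2 called 466 genes and 0 members. The 3 were Dnajb9, Creb3l2 and Sec23a, all with a more negative medium difference in iXEN cells. Creb3l2 had an interaction of -1.39 (95% interval -2.73 to -0.04, adjusted p = 0.324) on the log2 scale.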

How the data were processed

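Polyadenylated RNA of 17 CD-1 mouse samples was sequenced after Trizol extraction with an Illumina TruSeq mRNA kit, per the labels' protocols. The authors deposited whole-number read counts per gene symbol. The submitters' processing notes name HTSeq 0.6.1, FastQC 0.11.3, Trimmomatic 0.32, TopHat2 2.0.12 and build mm9. Neither annotation nor strand setting is stated in the sources at hand. Genes that overlap others, or that have near-identical copies, are therefore uncertain. Lines of the counter itself held 20.8% to 33.1% of a file's total and were left out.

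Groups came from the sample labels. Each comparison was fitted over the whole table with edgeR 4.0.16 in R 4.3.3, using the libraries of its groups only. Genes were kept by filterByExpr (minimum count 10, minimum total 15) and scaled by TMM (factors 0.863 to 1.16 over all 17). The two-sided quasi-likelihood test was adjusted by Benjamini-Hochberg over all genes tested, with a threshold of 0.05. SE and 95% intervals come from the same fit, and CPM use TMM over all 17 libraries. CPM are not scaled by gene length, so levels are not compared between genes. Floors cover counting error only. Library pairs of a group differed by chi-square values of 43.4 to 1219 per degree of freedom, more than sampling noise gives, so none was treated as a repeat of another library.

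To see whether numbers pair libraries, the log2 CPM of each library was taken as its deviation from the mean of its own group. These deviations, not the levels themselves, correlated at 0.24, 0.377 and 0.635 for same-numbered XEN libraries of the media, against -0.567 to 0.428 for unlike numbers. Deviations cancel out within a group, so a positive value for a pair lowers the others, and unlike numbers are no neutral measure. XEN library 2 in ESC medium and XEN library 1 in XEN medium gave the 0.428, above the same-numbered 0.24 and 0.377. Whether the numbers pair libraries is thus unsettled. The main fits did not pair them, and pairing by number entered only as an alternative, the replicate block. Alternatives were RLE factors, no filter, DESeq2 1.42.0, all libraries in a shared fit, a replicate block, and leaving out libraries. The members and the pathway, cargo and marker lists were chosen with earlier results of these data known, and no p is given over a list. Values in every library are given for the called member with the largest change per role against MEF, in iXEN cells in ESC medium and in XEN cells in XEN medium. Hspa5, Xbp1, Creb3l1, Serpinh1 and Kdelr3 were added to these, and list genes were limited to the 4 with the largest change per direction. Other members shown by library were chosen after their values were seen. Promoters came from RefSeq on GRCm38.p6, matched by symbol. Lepre1, Leprel1, Leprel2, Glt25d1 and Lamb1 were used for symbols that the files list under those names.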

Additional observations from a re-analysis of the deposited data

Results flagged for a closer look

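Pdia4, an ER disulfide isomerase, was at 721 CPM in library 6 of iXEN cells in XEN medium. The other 3 libraries of that group held 277 to 324 CPM, and the gap made up 0.894 of the group's whole range, above the Dixon limit for 4 libraries. This was the 1 such value in 74 groups of 4 libraries, where chance gives about 5%. The same library was the highest of 14 for 17 of 37 members.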

How the results depend on the processing

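Of 903 recomputed fold changes of 83 named member values, 732 kept their direction and side of the threshold, 148 lost their call, 20 gained one and 3 turned in direction. The 3 were Creb3l1 in iXEN cells in ESC medium without iXEN library 6 (-0.57), and Creb3l1 in XEN cells in ESC medium without MEF library 1 (0.14) and without XEN library 7 (0.61). Members called higher against MEF, with 1 library left out, ranged from 14 to 26 in iXEN and from 0 to 16 in XEN cells in ESC medium, and from 5 to 18 in iXEN and from 4 to 24 in XEN cells in XEN medium. Members called lower ranged from 0 to 2 in XEN cells in ESC medium, from 0 to 1 in iXEN and from 0 to 2 in XEN cells in XEN medium. Fits with 2 MEF libraries have fewer samples to estimate the spread from. One fit over all 17 libraries called 11 members higher in iXEN cells in ESC medium, 0 lower in XEN cells in XEN medium, and 1 lower between media in iXEN cells. DESeq2 called 16 higher in XEN cells in ESC medium, 1 lower in iXEN cells in XEN medium, and 1 higher and 1 lower between media in iXEN cells. Without iXEN libraries 2 and 9, which hold fibroblast collagen transcripts, 2 members were lower in iXEN cells in XEN medium. Between media in iXEN cells, members called lower ranged from 0 to 1, the 1 arising without iXEN library 6 in ESC medium. Over single libraries left out, Creb3l1 ranged from -0.57 to 0.42 in iXEN and from -0.36 to 0.61 in XEN cells in ESC medium. The cause of these shifts was not tested. With a replicate block by library number, 0 members were called in the medium comparisons and in the interaction, and the block changed no member's call. Deviations from the group mean correlated at 0.144, 0.181, 0.122 and -0.03 for same-numbered iXEN libraries, and the main fits did not pair them either. Leaving out both XEN libraries numbered 7, an alternative chosen after seeing the data, called 0 members between media in XEN cells and in the interaction. Depth of 20071567 counts or more left 37 members testable.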

Other observations

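Outside the members, 22 genes of the count files hold the ER stress response element described above in the RefSeq promoter window. In iXEN in ESC, XEN in ESC, iXEN in XEN and XEN in XEN medium, 8 of 12, 3 of 9, 6 of 11 and 7 of 12 tested rose against MEF. In each, 1 fell. Of all genes, 20.8%, 11.4%, 17.7% and 23% rose. A gene low in MEF passes the filter only where the other group holds enough counts, so the numbers tested depend on the rise itself. Adcy3, an adenylate cyclase, fell in each, with a log2 fold change of -5.69 (SE 0.37, adjusted p = 9.11e-06) in iXEN cells in ESC medium. The largest rises in iXEN cells in ESC medium were those of Xlr3a, Xlr3c and Xlr3b, at 6.97, 6.04 and 4.73. These genes are close copies of each other that may share reads and promoter matches. They may therefore not be separate rises in the counts above, here or in XEN medium. Ero1lb and Derl3, already described, are also among those that rose. Pan2, a subunit of a poly(A) nuclease, rose by 1.95 (SE 0.20, adjusted p = 0.000121) in iXEN cells in ESC medium. No test over these genes was made.

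Col4a1, a chain of the basement membrane collagen, was at 6.10 CPM in XEN library 1 in XEN medium, below the MEF range of 780 to 1260 CPM. XEN libraries 2 and 7 in XEN medium held 6891 and 4917 CPM. In that library Serpinh1 and Plod1 were at 8461 and 651 CPM, and Lama1 was at 15483 CPM.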
